A study of Mus musculus with 24 samples.

Results

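Genes of placental haemostasis and fibrinolysis were followed through gestation at the mouse maternal-fetal interface (MFI), the tissue made up of mother-derived decidua and fetus-derived placenta. The 9 genes described here were chosen by name, as *F3*, *Tfpi*, *Tfpi2*, *Thbd*, *Procr*, *Pros1*, *Plat*, *Plau* and *Plaur*, out of 55401 genes in the count table, by their roles and with earlier results of these data known. PolyA RNA of wild-type (WT) and C1qtnf6-KO mice was sequenced at gestation days gd10.5 and gd14.5 and, later, gd16.5 and gd19.5, with 3 libraries in each of 8 groups and 24 libraries in all. All animals were on the C57BL/6 background, and the KO mice (C57BL/6JCya) were homozygous for a CRISPR-Cas9 deletion of the 3 exons of *C1qtnf6*, which codes for the secreted hormone CTRP6. No tissue-specific driver was used. The sources used here give neither dam age nor sire genotype for these libraries and assign none of them to a dam, litter or batch. P-values thus measure the spread between libraries, and how much of it lies between dams, litters or handling is not known. The labels name the MFI as the tissue, whereas the study's methods name placentae as the source of the RNA.

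Blood clotting starts when tissue factor, the product of *F3*, meets coagulation factor VII, and the thrombin formed in the end turns fibrinogen into fibrin. *Tfpi* and *Tfpi2* code for Kunitz-type inhibitors, of which the former blocks tissue factor and the latter mainly blocks plasmin and other proteases. Thrombomodulin (*Thbd*) and the endothelial protein C receptor (*Procr*) turn thrombin towards activation of protein C, for which protein S (*Pros1*) is a cofactor. Fibrin is dissolved by plasmin, which is cut from plasminogen by the tissue-type activator (*Plat*) or the urokinase-type activator (*Plau*), the latter bound to its receptor (*Plaur*). In the mouse placenta trophoblast cells rather than endothelium line the maternal blood spaces and carry much of this machinery.

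The deleted gene marked the genotypes. Levels are given as CPM, counts scaled to the library's size. *C1qtnf6* lay between 64.7 and 168 CPM in the WT libraries and between 0.0341 and 2.05 CPM in the KO libraries, and it was called lower in KO at every stage, with log2 fold changes of -7.42, -8.17, -6.45 and -7.00 from gd10.5 to gd19.5. Total counts lay between 20975717 and 37383108 per library, and detection was set at 3 counts, which is 0.0773 to 0.149 CPM. The smallest count of any member in any library was 426, for *F3*, so no member was limited by depth, and all 9 passed the expression filter in every fit. The tissue was checked by marker lists. Markers of trophoblast giant cells summed to 4343 to 30229 CPM and those of decidual stroma to 2960 to 13821 CPM. Lower sums were found for labyrinth trophoblast (81.3 to 390 CPM), neutrophils (19.51 to 167 CPM) and platelets with megakaryocytes (7.13 to 44.0 CPM). Within these lists, *Synb* of the labyrinth, *Gp1bb* of platelets and *Ly6g* of neutrophils had at most 3 counts in every library. The sums thus rest on other genes of the lists, and why these genes were so low was not tested. The library KO gd10.5 replicate 2 stood apart, with a sum of spongiotrophoblast and glycogen cell markers of 10533 CPM against 745 to 1938 CPM in the other 5 libraries of gd10.5. Its Y-linked genes summed to 71.1 CPM, against at most 0.311 CPM in those 5. That Y-linked sum was over 10 CPM in 9 of the 24 libraries. Markers of yolk sac endoderm also varied between libraries of a group, from 107 to 2671 CPM in WT gd10.5 and from 1065 to 2316 CPM in KO gd10.5. At gd16.5 they ran from 234 to 4971 CPM in WT and from 253 to 16097 CPM in KO. No sum was over 328 CPM at gd14.5 or gd19.5.

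In the annotation of the deposited table (GRCm38), *F3* (ENSMUSG00000028128) lies on chromosome 3 from 121723537 to 121735048, *Tfpi* (ENSMUSG00000027082) on chromosome 2 from 84432855 to 84476775, *Thbd* (ENSMUSG00000074743) on chromosome 2 from 148404466 to 148408188, and *Procr* (ENSMUSG00000027611) on chromosome 2 from 155751117 to 155755471. *Tfpi2* (ENSMUSG00000029664) lies on chromosome 6 from 3962595 to 3988919, *Plaur* (ENSMUSG00000046223) on chromosome 7 from 24462484 to 24475968, *Plat* (ENSMUSG00000031538) on chromosome 8 from 22757727 to 22782844, *Plau* (ENSMUSG00000021822) on chromosome 14 from 20836660 to 20843385, and *Pros1* (ENSMUSG00000022912) on chromosome 16 from 62854307 to 62929346. *Tfpi*, *Tfpi2* and *Thbd* are on the minus strand and the others on the plus strand. No exon of a member shared a base with an exon of another gene of the table, so counting without regard to strand mixed no member with an overlapping gene.

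RefSeq promoters (GRCm38.p6) were matched by symbol for 6 of the 9 members, *F3*, *Tfpi*, *Tfpi2*, *Procr*, *Plaur* and *Pros1*. The 250 bases before the start are shown for the 4 of them whose RNA was called changed between gd10.5 and gd14.5, first those that rose and then those that fell. They are chr3:121723287-121723536 (plus strand), chr6:3988937-3989186 (minus), chr2:84476760-84477009 (minus) and chr2:155750967-155751216 (plus), each read 5′ to 3′ towards the start. Where RefSeq gives several starts, the one nearest to the start in the table was taken, which lay 0, 17, 16 and 100 bases from it for *F3*, *Tfpi2*, *Tfpi* and *Procr*. Capitals mark matches on either strand to 5 short motifs. These were the AP-1 motif (TGANTCA), the AP-2 motif (GCCNNNGGC) and the GC box (GGGCGG). For the motif of GATA factors, the letters AGATAA were searched. For the promoter element known as the TATA box, the letters searched were TATAAA.
F3: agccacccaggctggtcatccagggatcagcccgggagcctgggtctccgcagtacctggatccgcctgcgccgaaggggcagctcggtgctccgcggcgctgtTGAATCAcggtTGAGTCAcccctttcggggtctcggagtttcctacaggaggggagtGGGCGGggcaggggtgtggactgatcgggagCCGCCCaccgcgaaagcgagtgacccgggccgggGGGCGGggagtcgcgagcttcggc
Tfpi2: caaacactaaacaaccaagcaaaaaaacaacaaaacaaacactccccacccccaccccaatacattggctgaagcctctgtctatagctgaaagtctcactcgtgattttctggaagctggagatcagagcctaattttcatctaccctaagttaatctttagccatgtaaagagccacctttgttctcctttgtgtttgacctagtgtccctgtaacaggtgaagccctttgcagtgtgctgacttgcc
Tfpi: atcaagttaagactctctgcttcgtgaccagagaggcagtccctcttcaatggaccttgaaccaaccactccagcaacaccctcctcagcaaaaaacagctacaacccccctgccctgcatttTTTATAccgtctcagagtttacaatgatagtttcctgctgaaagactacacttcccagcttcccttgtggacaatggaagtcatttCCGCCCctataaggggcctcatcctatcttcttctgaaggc
Procr: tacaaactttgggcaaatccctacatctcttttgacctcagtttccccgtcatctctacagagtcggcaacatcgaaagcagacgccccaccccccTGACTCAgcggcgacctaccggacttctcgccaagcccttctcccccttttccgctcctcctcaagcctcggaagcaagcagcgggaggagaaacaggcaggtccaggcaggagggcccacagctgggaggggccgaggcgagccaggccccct
The *F3* window held 2 AP-1 matches and 3 GC boxes, and the *Procr* window held 1 AP-1 match. In *Tfpi* 1 GC box and 1 TATA box were found, and in *Tfpi2* no match to any of the 5. Among 32817 RefSeq windows of this length, 6.75% held an AP-1 match, 13.7% an AP-2 match, 32.7% a GC box, 9.99% a GATA match and 12.4% a TATA box. AP-1 letters and GC boxes each stood before a gene that rose and before a gene that fell. A match is a description of letters and not a binding site.

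From gd10.5 to gd14.5 the levels of several members crossed. *F3* and *Tfpi2*, together with *Plat*, rose in both genotypes, while *Tfpi* and *Procr* fell in both. The call (edgeR quasi-likelihood test, Benjamini-Hochberg adjusted p under 0.05 over all genes and an absolute log2 fold change over 1) was met by 5 of 9 members in WT and by 5 of 9 in KO, and they were these same genes. Adjacent steps share the libraries of the stage between them. Over all 19299 genes tested, 22.5% were called in WT and 20.1% in KO. The median log2 fold change of the 9 members was 0.15 in WT and 0.20 in KO, beside -0.02 and 0.00 over all genes, since risers and fallers offset each other. Fewer cells of a type and less RNA per cell cannot be told apart in these bulk libraries.

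**Figure D1:**
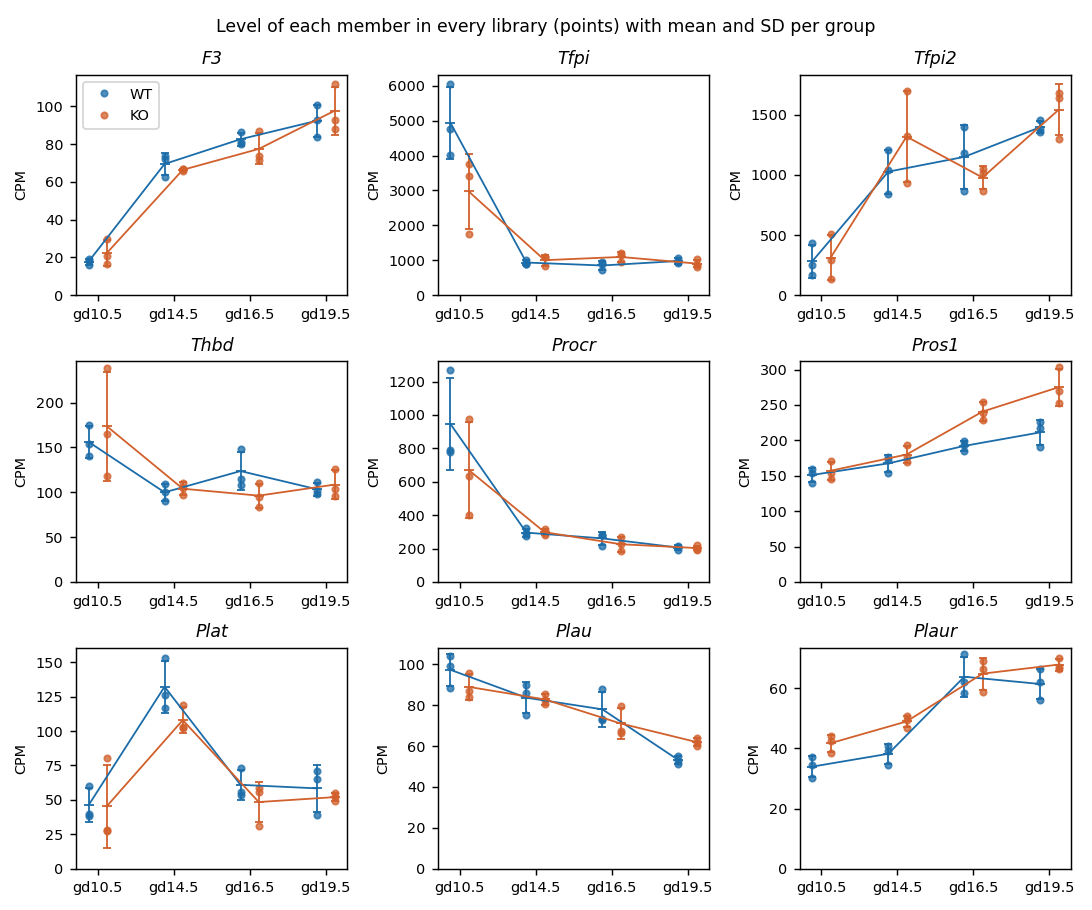
Level of each of the 9 members in CPM (vertical axes, each from 0) in every library (points) against gestation day, with the mean and SD of the 3 WT (blue) and 3 KO (orange) libraries of a stage. *Tfpi* and *Procr* were highest at gd10.5, *F3* and *Tfpi2* were low at gd10.5, *Plat* peaked at gd14.5, and *Pros1* at gd16.5 and gd19.5 lay higher in every KO library than in any WT library of the same stage.

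*F3*, the starter of clotting, was at 16.0, 19.1 and 18.0 CPM in WT gd10.5 and at 16.3, 29.7 and 20.7 CPM in KO gd10.5. At gd14.5 it stood at 62.8, 73.6 and 72.0 CPM in WT and at 65.7, 66.8 and 66.6 CPM in KO. No library of gd14.5 overlapped with gd10.5 in either genotype. The log2 fold change was 1.97 ± 0.15 (SE) in WT with an adjusted p of 2.86e-08, and 1.58 ± 0.15 in KO with an adjusted p of 1.92e-07. Thereafter the steps were not called, yet the group means went on from 69.5 ± 5.83 (SD, n = 3) to 82.6 ± 3.52 and 92.3 ± 8.48 CPM in WT and from 66.4 ± 0.569 to 77.4 ± 8.19 and 97.7 ± 12.6 CPM in KO. In the order of the 8 group means, the 6 groups from gd14.5 on lay above both gd10.5 groups without overlap, while neighbours within those 6 overlapped. The highest mean was 5.52 times the lowest.

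*Tfpi*, which codes for the inhibitor of the tissue factor pathway, ran the other way. It was at 6057, 4749.8 and 4007 CPM in WT gd10.5 and at 3412, 1749.9 and 3753 CPM in KO gd10.5. At gd14.5 the WT libraries held 1017, 886 and 892 CPM and the KO libraries 1083, 821 and 1096 CPM. Every library of gd10.5 lay above every later library. *Tfpi* fell by 2.41 ± 0.23 on the log2 scale in WT (adjusted p of 2.07e-07) and by 1.57 ± 0.22 in KO (adjusted p of 1.35e-05). From gd14.5 on, the group means stayed between 847 ± 126 CPM in WT gd16.5 and 1092 ± 141 CPM in KO gd16.5, with overlap between all neighbours in the order. Markers moved over the same step. The sum for giant cells was 4343 to 7848 CPM at gd10.5 and 11151 to 13849 CPM at gd14.5. Its 6 genes did not all follow that sum: *Prl2c2*, a gene of this list, ran with *Tfpi* over the 24 libraries (Pearson's r of 0.972). The sum for spongiotrophoblast and glycogen cells was 745 to 1938 CPM in 5 libraries of gd10.5, 10533 CPM in KO gd10.5 replicate 2 and 20688 to 25292 CPM at gd14.5. Labyrinth trophoblast markers summed to 81.3 to 233 CPM and then to 299 to 386 CPM, and neutrophil markers to 59.3 to 167 CPM and then to at most 33.6 CPM. Decidual stroma markers were lower at gd14.5 in every WT library, with 6437 to 13821 CPM before and 4108 to 4136 CPM after, but overlapped in KO, with 3930, 3233 and 11718 CPM before and 4030, 4376 and 3475 CPM after. The part of these cell types in the changes of *F3*, *Tfpi2*, *Tfpi*, *Procr* and *Plat* over this step was not tested.

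*Tfpi2* held 247, 432 and 166 CPM in WT gd10.5 and 135, 508 and 289 CPM in KO gd10.5. At gd14.5 it was at 1038, 1205 and 840.4 CPM in WT and at 1326, 1696 and 937 CPM in KO, again without overlap with gd10.5. It rose by 1.87 ± 0.36 on the log2 scale in WT (adjusted p of 0.000263) and by 2.09 ± 0.37 in KO (adjusted p of 0.000113). Its later means lay between 979 ± 95.2 CPM in KO gd16.5 and 1542 ± 213 CPM in KO gd19.5, and no later step was called. The spread at gd10.5 was wide for this gene, with SDs of 136 CPM around a WT mean of 282 CPM and of 188 CPM around a KO mean of 311 CPM.

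On a scale per length of exon, which allows genes to be compared, the leading inhibitor was exchanged. At gd10.5 *Tfpi* led with 904 ± 190.0 CPM per kb in WT and 544 ± 196 in KO, ahead of *Procr* with 466 ± 137 and 330.2 ± 142 and of *Tfpi2* with 161 ± 77.9 and 178 ± 107. At gd14.5 *Tfpi2* led with 588 ± 104 CPM per kb in WT and 755 ± 217 in KO, followed by *Tfpi* with 171 ± 13.5 and 183 ± 28.4 and by *Procr* with 145 ± 12.2 and 147 ± 8.14. *Pros1* was next, with 41.0 ± 3.02 and 44.0 ± 3.10 CPM per kb. These 4 genes kept this order in both genotypes at gd16.5 and gd19.5. *F3* and *Plat* were the lowest pair at gd10.5, with 7.01 ± 0.608 and 7.40 ± 1.95 CPM per kb in WT, and *Plat* was the lowest member again at gd16.5 and gd19.5.

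Ratios of 2 genes within a library, which library scaling cannot move, were compared between adjacent stages by an exact permutation of stage labels within genotype (two-sided, 15 tests adjusted together, of which not all are reported here, smallest possible p of 0.005). The log2 ratio of *F3* to *Tfpi*, in counts per kb, went from -6.45 ± 0.902 (SD, 6 libraries) at gd10.5 to -2.71 ± 0.231 at gd14.5, a gain of 3.74 (exact permutation p = 0.005, adjusted p = 0.015). The ratio of *Tfpi2* to *Tfpi* went from -2.16 ± 1.12 to 1.89 ± 0.461, a gain of 4.05 with the same p and adjusted p. In no library of gd10.5 was this log2 ratio above -0.139, and in none of gd14.5 was it below 1.42. The ratio of *Thbd* to *F3* fell by 2.46, from 2.48 ± 0.621 to 0.02 ± 0.0915, again at p = 0.005 in the exact permutation test (adjusted p = 0.015). Later steps of these 3 ratios were smaller: the largest was 0.51 for *Tfpi2* to *Tfpi* from gd16.5 to gd19.5 (exact permutation p = 0.04, adjusted p = 0.0667), and *Thbd* to *F3* fell by 0.28 over that step (exact permutation p = 0.025, adjusted p = 0.0469).

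**Figure D2:**
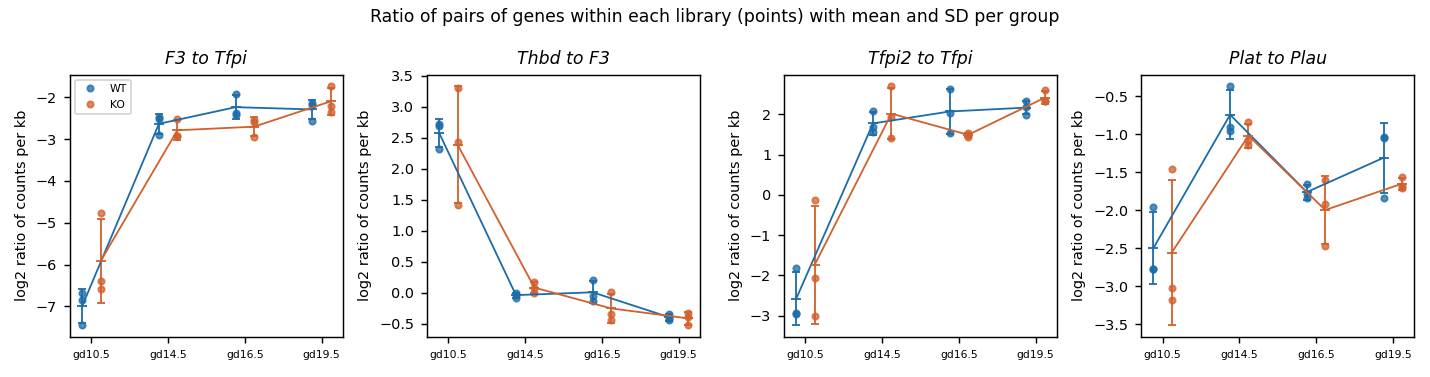
Log2 ratio of counts per kb of exon for 4 pairs of genes (vertical axes) in every library (points) by stage, with the mean and SD of the 3 WT (blue) and 3 KO (orange) libraries. The 3 panels on the left show the shift between gd10.5 and gd14.5, with *F3* to *Tfpi* gaining 3.74 and *Tfpi2* to *Tfpi* gaining 4.05 over both genotypes. *F3* stayed below *Tfpi*, with a log2 ratio of at most -1.74 in every library. The panel of *Plat* to *Plau* peaks at gd14.5.

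Of the receptors of the protein C pathway, *Procr* had its highest levels at gd10.5. *Procr* was at 1267, 779.7 and 791 CPM in WT gd10.5 and at 633, 403 and 975 CPM in KO gd10.5. At gd14.5 it was at 273, 322 and 291 CPM in WT and at 283, 294 and 316 CPM in KO, below every library of gd10.5. It fell by 1.68 ± 0.23 on the log2 scale in WT (adjusted p of 9.28e-06) and by 1.17 ± 0.23 in KO (adjusted p of 0.000346). The means then went on to 206 ± 12.8 CPM in WT gd19.5 and 203 ± 13.4 CPM in KO gd19.5 through steps that were not called. The highest group mean was 4.66 times the lowest.

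*Thbd* differed less between stages. It was at 153, 139.9 and 175 CPM in WT gd10.5 and at 238, 118 and 165 CPM in KO gd10.5, against 90.5, 109 and 100.4 CPM in WT gd14.5 and 96.5, 104 and 111 CPM in KO gd14.5. The groups of these stages did not overlap within a genotype, and the log2 differences of -0.64 ± 0.18 in WT (adjusted p of 0.00555) and -0.74 ± 0.18 in KO (adjusted p of 0.00216) passed the adjusted p but not the fold limit. All neighbours in its order of 8 group means overlapped. Both receptors are made by endothelium, among other cells, and the sum of 8 endothelial markers went over the same step from 1553 to 2223 CPM to 1392 to 1597 CPM. Whether this bears on *Thbd* or *Procr* was not tested.

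*Pros1*, the cofactor of protein C, had its group means in the order of the stages in both genotypes. In WT it was at 140.5, 159 and 154 CPM at gd10.5 and at 153, 173 and 177 CPM at gd14.5, then at 194, 184 and 199 CPM at gd16.5 and at 191, 217 and 225 CPM by gd19.5. In KO the libraries held 154, 171 and 146 CPM, then 176, 169.6 and 194 CPM, then 255, 239 and 228 CPM, and at last 253, 303 and 269 CPM. No single step was called. The largest, from gd14.5 to gd16.5 in KO, was 0.42 ± 0.09 on the log2 scale with an adjusted p of 0.00206, under the fold limit, beside 0.20 ± 0.09 in WT with an adjusted p of 0.13.

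The plasminogen activators parted ways. *Plat* was at 40.1, 38.3 and 60.2 CPM in WT gd10.5 and at 27.7, 80.4 and 28.2 CPM in KO gd10.5. It reached 153, 126 and 117 CPM in WT gd14.5 and 103, 119 and 102 CPM in KO gd14.5, and it returned to 53.7, 55.7 and 73.5 CPM in WT gd16.5 and to 58.5, 31.4 and 55.5 CPM in KO gd16.5. Every library of gd14.5 was above every other library. *Plat* rose by 1.52 ± 0.33 on the log2 scale in WT (adjusted p of 0.000653) and by 1.25 ± 0.33 in KO (adjusted p of 0.00339) into gd14.5, and it then fell by 1.12 ± 0.32 in WT (adjusted p of 0.0208) and by 1.16 ± 0.33 in KO (adjusted p of 0.0141). It was the one member of 9 called from gd14.5 to gd16.5 in each genotype, beside 5.09% of all genes in WT and 8.61% in KO. The fall was close to the limits: it was not called in WT without WT gd14.5 replicate 1, WT gd16.5 replicate 1 or WT gd16.5 replicate 2, and not in KO without KO gd14.5 replicate 2 or KO gd16.5 replicate 2, with log2 fold changes between -1.09 and -0.91 and adjusted p between 0.0508 and 0.0874 in those 5 fits. In KO, the rise was also just under the fold limit without KO gd10.5 replicate 1 (0.99) or replicate 3 (1.00), and *Procr* was so without replicate 3 (-0.80), which left 3 of 9 members called in that fit.

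*Plau*, in contrast, showed no peak. In WT it was at 104, 99.3 and 88.6 CPM at gd10.5 and at 75.2, 89.7 and 85.9 CPM at gd14.5. It then held 73.2, 72.9 and 87.7 CPM at gd16.5 and 51.4, 55.3 and 52.7 CPM at gd19.5. The KO means by stage were 88.9 ± 6.23, 82.8 ± 2.56, 71.0 ± 7.48 and 61.9 ± 2.10 CPM. The lowest levels were those of gd19.5, which overlapped with no earlier group of their genotype. From gd16.5 to gd19.5 the log2 difference was -0.55 ± 0.09 in WT (adjusted p of 0.00177) and -0.20 ± 0.09 in KO (adjusted p of 0.199), under the fold limit in both. Over that step 0 of 9 members were called in WT and 0 of 9 in KO, beside 1.49% and 2.19% of all genes. At an unadjusted p under 0.05 there were 1 and 3 members, and DESeq2 and limma voom also called 0 in each genotype.

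The log2 ratio of *Plat* to *Plau* within a library went from -2.53 ± 0.674 at gd10.5 to -0.88 ± 0.273 at gd14.5 and back to -1.88 ± 0.316 at gd16.5, and each of these 2 steps had p = 0.005 in the exact permutation test (adjusted p = 0.015). At each stage *Plau* held more counts per kb than *Plat*. The urokinase receptor *Plaur* was low before gd16.5, with 34.3, 37.2 and 30.3 CPM in WT gd10.5 and 34.4, 40.9 and 39.3 CPM in WT gd14.5 against 62.0, 58.3 and 71.2 CPM in WT gd16.5. The difference from gd14.5 to gd16.5 was 0.74 ± 0.09 on the log2 scale in WT (adjusted p of 2.02e-05) and 0.41 ± 0.09 in KO (adjusted p of 0.00384), under the fold limit in both. At gd19.5 it stayed at 61.4 ± 5.13 CPM in WT and 67.9 ± 2.01 CPM in KO.

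**Figure D3:**
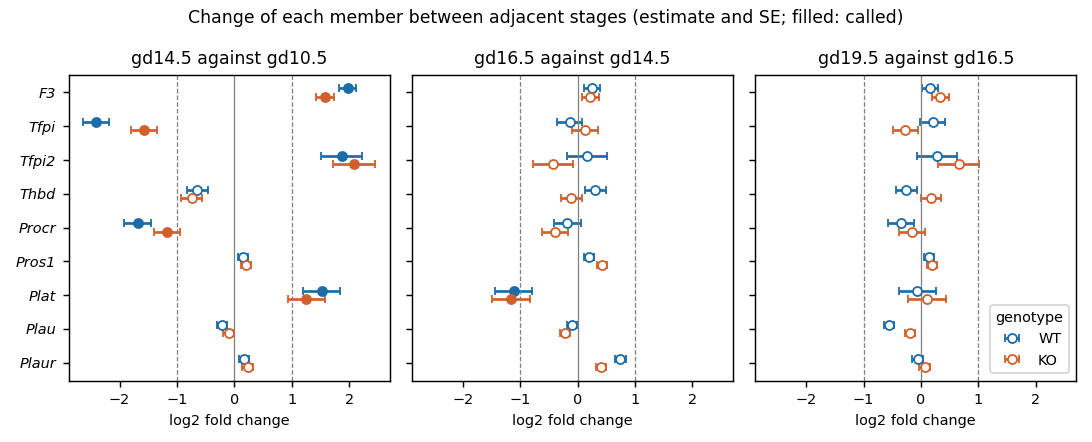
Log2 fold change between adjacent stages (horizontal axes, estimate ± SE) of the 9 members in WT (blue) and KO (orange), with dashed lines at the fold limit of 1 in either direction. Filled points were called: 5 of 9 members in each genotype from gd10.5 to gd14.5, *Plat* from gd14.5 to gd16.5, and none from gd16.5 to gd19.5.

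The substrate of the activators was read beside them. *Plg*, the gene of plasminogen, was at 21.4 CPM in WT gd10.5 replicate 1, at 0.108 CPM in replicate 2 and at 0 in replicate 3, with 12.4, 4.80 and 20.2 CPM in KO gd10.5. It held 0.105, 1.02 and 0.126 CPM in WT gd14.5 and 0.220, 0.155 and 0.230 CPM in KO gd14.5. At gd16.5 it was at 6.20, 0.221 and 0.243 CPM in WT and 5.08, 11.6 and 0.502 CPM in KO, and at gd19.5 no library held more than 0.409 CPM. From gd10.5 to gd14.5 *Plg* fell by 4.02 ± 1.53 on the log2 scale in WT (adjusted p of 0.0320), with libraries that overlapped, and by 5.95 ± 1.72 in KO (adjusted p of 0.00689). To gd16.5 it rose in KO by 4.85 ± 1.72 (adjusted p of 0.0451), and the step in WT and the steps to gd19.5 were not called. Between KO and WT it was called at neither gd10.5 nor gd16.5 (adjusted p of 1.00 and 0.652) and did not pass the filter at the other stages.

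Comparisons between genotypes asked whether loss of *C1qtnf6* altered the members. At each of the 4 stages 0 of 9 members were called between KO and WT. Over all genes 0.00572% were called at gd10.5 and 0.0166% at gd14.5, followed by 0.00586% at gd16.5 and 0.023% at gd19.5. These shares are 1, 3, 1 and 4 genes, and the deleted gene was the only call at gd10.5 and gd16.5. With so few calls, 0 of 9 does not show that the members were unaltered. The study reports more genes than this at gd16.5, by DESeq2 at the same limits. At an unadjusted p under 0.05 there were 1, 2, 3 and 2 members from gd10.5 to gd19.5. DESeq2 and limma voom with quality weights also called 0 at each stage and for the interaction with stage. By edgeR, the test of that interaction over 24 libraries called 0 of 9 members and 0% of 19299 genes (3 members and 1396 genes at an unadjusted p under 0.05). Absolute log2 differences of the members did not exceed 0.73 at any stage.

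**Figure D4:**
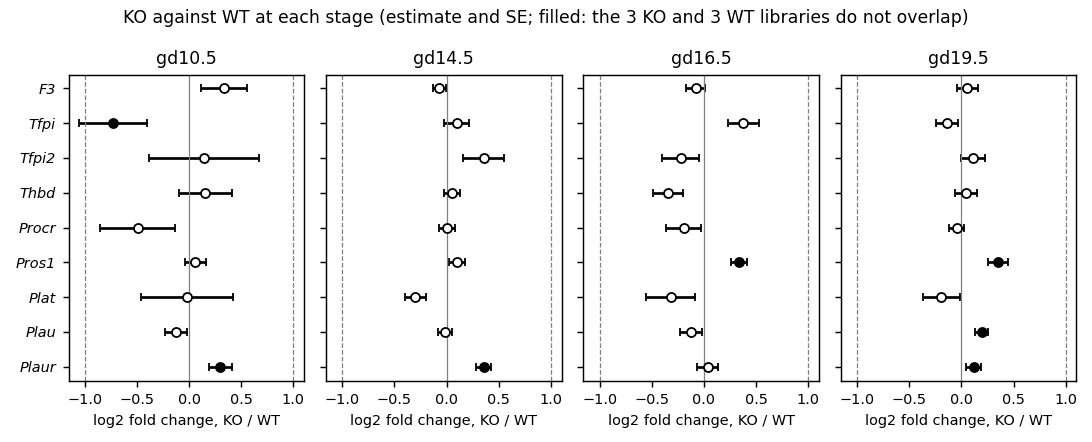
Log2 fold change of KO against WT (horizontal axes, estimate ± SE) of the 9 members at each stage, with dashed lines at the fold limit of 1. Filled points mark members whose 3 KO and 3 WT libraries did not overlap: *Tfpi* and *Plaur* at gd10.5, *Plaur* at gd14.5, *Pros1* at gd16.5, and *Pros1*, *Plau* and *Plaur* at gd19.5.

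*Pros1* and *Plaur* were the members whose KO and WT libraries did not overlap at more than 1 stage. *Pros1* was higher in every KO library than in any WT library of the stage at gd16.5, by 0.34 ± 0.08 on the log2 scale (adjusted p of 0.363), and at gd19.5, by 0.35 ± 0.09 (adjusted p of 0.187), beside 0.06 ± 0.10 at gd10.5 and 0.10 ± 0.07 at gd14.5. For *Plaur* the difference was 0.30 ± 0.11 at gd10.5, with 38.6, 42.6 and 44.1 CPM in KO, and 0.35 ± 0.07 at gd14.5 (adjusted p of 0.488), with 50.6, 49.4 and 46.8 CPM in KO, and the WT libraries given above lay lower at both stages. At gd16.5 the difference in *Plaur* was 0.04 ± 0.10 with overlapping libraries, and at gd19.5 it was 0.12 ± 0.07 with KO at 67.0, 70.1 and 66.4 CPM and WT at 66.3, 56.0 and 62.0 CPM. The adjusted p was under 0.05 in DESeq2 for *Plaur* at gd14.5 (0.048) and for *Pros1* at gd16.5 (0.0258) and gd19.5 (0.0358), always under the fold limit. With no filter on low counts it was so for *Plaur*, *Plat* and *Tfpi2* at gd14.5 and for *Pros1* at gd19.5. Over the alternatives run, the adjusted p lay between 0.00121 and 1 for *Plaur* at gd14.5, between 0.0258 and 1.00 for *Pros1* at gd16.5 and between 0.00121 and 0.394 for *Pros1* at gd19.5.

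How far libraries of the genotypes separated was read against all genes. The 3 KO and 3 WT libraries did not overlap for 2 of 9 members at gd10.5, for 1 each at gd14.5 and gd16.5 and for 3 at gd19.5, whereas this held for 4.18%, 12.5%, 17.7% and 21.4% of all genes tested at these stages. An additive fit of genotype beside stage over the 24 libraries, added after these values were seen, gave log2 differences of 0.22 ± 0.05 for *Pros1* (adjusted p of 0.394) and 0.21 ± 0.05 for *Plaur* (adjusted p of 0.406). It called 0 of 9 members and 0.0104% of 19299 genes, and the adjusted p of the other 7 members lay between 0.864 and 0.994.

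At gd10.5 *Tfpi* was lower in every KO library than in any WT library, by 0.73 ± 0.32 on the log2 scale with an adjusted p of 1.00. The value without KO gd10.5 replicate 2, the library that stood apart, was -0.46, and over all alternatives run it lay between -0.93 and -0.44. In that library *Tfpi* and *Procr* were the lowest, *F3*, *Tfpi2* and *Plat* the highest of the 6 libraries of gd10.5, and *F11* was at 1.52 CPM against at most 0.310 CPM in the others. *Tfpi* at gd16.5 was higher in KO by 0.38 ± 0.15 (adjusted p of 0.433), with overlap. *Thbd* was lower in KO at gd16.5 by 0.35 ± 0.14 on the log2 scale (adjusted p of 0.445), with 94.7, 83.7 and 110.1 CPM in KO and 108, 115 and 148 CPM in WT. *Plau* at gd19.5 was higher in KO by 0.19 ± 0.06 (adjusted p of 0.238), at 61.7, 64.1 and 60.0 CPM. At that stage macrophage markers summed to 951 to 992 CPM in KO and 792 to 907 CPM in WT, and smooth muscle markers to 143 to 225 and 102 to 133 CPM, and their part in the gd19.5 values of the members was not tested. Differences of *F3*, *Tfpi2*, *Procr* and *Plat* lay within overlapping libraries at every stage, the largest being -0.49 ± 0.36 for *Procr* at gd10.5 and 0.35 ± 0.20 for *Tfpi2* at gd14.5.

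Marker sums differed between genotypes at gd16.5 as well. Giant cell markers summed to 25368 to 29678 CPM in KO and 16853 to 24111 CPM in WT, spongiotrophoblast and glycogen cell markers to 34505 to 37450 and 20738 to 28846 CPM, and decidual stroma markers to 2960 to 3314 and 3628 to 4120 CPM. Labyrinth trophoblast markers summed to 143 to 284 CPM in KO and 288 to 390 CPM in WT, and smooth muscle markers to 93.6 to 102 and 124 to 146 CPM. None of these sums overlapped. Endothelial markers, at 806 to 1173 CPM in KO and 1102 to 1529 CPM in WT, did. Their part in the *Pros1*, *Tfpi* and *Thbd* values of this stage was not tested. The ratio of *F3* to *Tfpi* was lower in KO at gd16.5 by 0.47 on the log2 scale, at the smallest p that an exact permutation of 3 against 3 libraries allows (p = 0.1).

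Other genes of the pathway were read from a list of 46. Between KO and WT, 0 of them were called at each stage, of 40, 38, 41 and 37 that passed the filter, and DESeq2 and limma voom also called 0. At an unadjusted p under 0.05 in edgeR there were 0, 5, 5 and 1. With no filter on low counts 4 were called at gd14.5 and 1 at gd19.5. From gd10.5 to gd14.5, 6 of 42 tested rose and 11 fell in WT, and 4 rose and 15 fell in KO, where 22.5% and 20.1% of all genes were called. Yolk sac sums at gd10.5 were 1377, 1065 and 2316 CPM in KO and 2671, 107 and 147 CPM in WT. At gd14.5 they were at most 264 CPM. The part of yolk sac in these counts of risers and fallers was not tested. Of the protease-activated receptors, through which cells sense thrombin and like proteases, *F2rl1* rose in WT (36.8 ± 3.15 against 12.5 ± 2.36 CPM) and in KO. *F2r*, the gene of the main thrombin receptor, rose in WT (398 ± 29.1 against 197 ± 26.1 CPM) and was just under the fold limit in KO (log2 fold change of 0.97), whereas *F2rl2* and *F2rl3* fell in both genotypes, by 1.70 and 1.21 on the log2 scale in WT. *Proc*, the gene of protein C itself, rose by 2.16 ± 0.43 on the log2 scale in WT and was at 7.32 ± 1.54 CPM at gd14.5. The count of 17 called in WT was 11 without WT gd10.5 replicate 1, the WT library with the highest yolk sac sum of that stage, or without WT gd14.5 replicate 3, and the 19 in KO were 12 without KO gd10.5 replicate 3.

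Among genes that regulate fibrinolysis, *Lrp1*, which codes for a clearance receptor of activator and inhibitor complexes, rose in both genotypes (577 ± 104 against 247 ± 28.9 CPM in WT). Of the clotting factors, *F7*, whose product is the partner of tissue factor, fell in both, from 11.8 ± 1.81 to 3.25 ± 0.580 CPM in WT. *Fga* of fibrinogen fell too, yet in WT its libraries overlapped, with 90.9, 0.513 and 0.508 CPM at gd10.5. *F11*, the gene of factor XI, rose from gd10.5 to gd14.5 and again to gd16.5 in both genotypes. It was at 0.310, 0.189 and 0.127 CPM in WT gd10.5, near the detection level, and had a mean of 12.2 ± 1.42 CPM at gd14.5, followed by 74.3 ± 7.66 CPM at gd16.5 and by 108 ± 12.9 CPM at gd19.5. In KO it held 8.44, 11.4 and 19.1 CPM at gd14.5, and its means at the later stages were 118 ± 27.1 and 133 ± 2.03 CPM. The KO libraries lay above the WT libraries at gd16.5 (log2 difference of 0.67 ± 0.17, adjusted p of 0.378) and at gd19.5 (0.28 ± 0.09, adjusted p of 0.238). Libraries of the genotypes did not overlap, in either direction, for 7 of 41 pathway genes tested at gd16.5 and 3 of 37 at gd19.5. Among all genes tested this held for 17.7% and 21.4%.

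From gd14.5 to gd16.5, 3 of 42 pathway genes rose and 2 fell in WT, while 14 rose and 3 fell in KO, against 5.09% and 8.61% called among all genes. The genes called in KO included *Fga*, *Fgb* and *Fgg*, which code for the chains of fibrinogen, *Plg*, and *Serpind1* and *Serpina10* among the anticoagulants, along with *Kng1* and *Kng2*, close paralogs whose counts are uncertain. *Proc* rose by 1.67 ± 0.39 on the log2 scale, and so did *Gas6*, a relative of *Pros1*, by 1.19 ± 0.21. *Gas6* was not called in WT, yet its mean there went from 13.3 ± 0.596 to 24.5 ± 2.05 CPM. In KO its means were 11.6 ± 1.14 and 26.4 ± 6.12 CPM. Fibrinogen and plasminogen are products of liver and yolk sac. *Fga* was at 93.2, 249.7 and 2.05 CPM in KO gd16.5 and at 77.3, 2.39 and 0.876 CPM in WT gd16.5, in libraries with yolk sac sums of 4853, 16097 and 253 CPM and of 4971, 260 and 234 CPM. Whether yolk sac in the dissected tissue bears on the calls was not tested. Without the 3 libraries of gd16.5 whose yolk sac sum exceeded 1000 CPM, *F11* was the 1 pathway gene called in KO over that step, with 1 KO library left and its spread assumed like that of the others, and 3 were called in WT, *F11*, *Kng2* and *F2rl3*. *Plat* was then called in neither genotype (log2 fold changes of -1.03 in WT and -0.95 in KO). The 5 calls in WT were 2 without WT gd14.5 replicate 1 or WT gd16.5 replicate 1 and 3 without WT gd14.5 replicate 3.

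**Figure D5:**
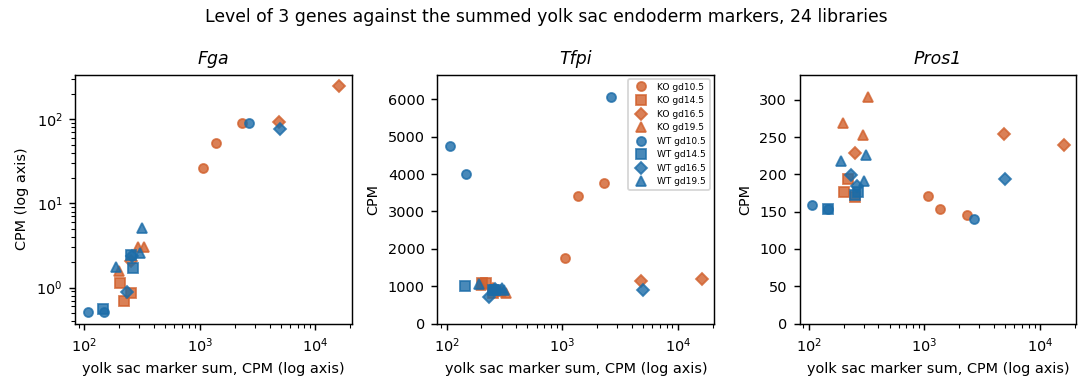
CPM of *Fga*, *Tfpi* and *Pros1* (vertical axes, a log axis for *Fga*) against the sum of 5 yolk sac endoderm markers (horizontal log axes) in 24 libraries, coloured by genotype with a symbol for each stage. *Fga* followed the sum, with Pearson's r of 0.972 on the log2 scale, whereas *Tfpi* (0.207) and *Pros1* (0.0501) did not line up with it.

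The members themselves followed the yolk sac sum less closely. Over the 24 libraries Pearson's r of log2 values with that sum was 0.972 for *Fga* and 0.896 for *Plg*, and it lay between -0.505 for *Plat* and 0.207 for *Tfpi* among the 9 members. These are descriptions over libraries that share stages.

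From gd16.5 to gd19.5, 0 of 42 pathway genes rose and 1 fell in WT, *Serpina5* (log2 fold change of -2.30 ± 0.55), while 0 rose and 5 fell in KO, *F13b*, *Kng1*, *Proc*, *Serpina10* and *Serpina5*. Among all genes 1.49% were called in WT and 2.19% in KO. Without KO gd16.5 replicate 2, the library with the highest yolk sac sum, 1 call was made in KO, and over the step before it 11 in place of 17. It was 11 without KO gd16.5 replicate 3 and 1 or 2 without any of the KO gd19.5 libraries. The WT call was not made without WT gd16.5 replicate 1 or 3 or without WT gd19.5 replicate 1 or 3.

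Members resembled each other across the 24 libraries in 2 sets. Pearson's r of log2 CPM was 0.934 between *F3* and *Tfpi2* and 0.92 between *Procr* and *Tfpi*, and it was -0.956 between *F3* and *Tfpi* and -0.898 between *Tfpi* and *Tfpi2*. *Plaur* and *Pros1* had an r of 0.828, while *Plat* stayed between -0.518 and 0.449 with each of the others. All these values rest on the difference between stages that the libraries share.

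Of 15109 genes with a mean of at least 1 CPM, those most like *F3* were *Fndc5* (r = 0.992), *Ntn4* (0.989) and *Irak2* (0.989), and those most like *Tfpi2* were *Pamr1* (0.978), *4930447F24Rik* (0.961) and *Ankrd35* (0.956). For *Tfpi* they were *Inpp4b* (0.973), *Prl2c2* (0.972) and *Fgd1* (0.971), where *Prl2c2* is a proliferin of giant cells with near-identical copies, so that its count is uncertain. *Procr* was most like *Hal* (0.982), *Guca2a* (0.976) and *Dbi* (0.975), and *Plat* most like *Jag2* (0.944), *Meox2* (0.941) and *Caskin1* (0.935). The leading genes were *Ampd2* (0.935) for *Thbd*, *Ssr1* (0.929) for *Plau*, *Slco2a1* (0.93) for *Plaur* and *Erbb3*, a receptor tyrosine kinase (0.931), for *Pros1*.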

How the data were processed

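Per the submitters' processing notes and the study's methods, stranded polyA libraries were sequenced as read pairs, trimmed with Trim Galore 0.6.4, aligned to GRCm38 with STAR 2.7.3a and counted with featureCounts of Subread 2.0.0 at default settings, so strand was not used and multiply mapped reads were not counted. The authors deposited raw gene counts for 24 libraries without normalization. Replicates are numbered as in the library descriptions (1 to 3), whereas the sample titles number the KO libraries differently.

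In R 4.3.3, KO was compared with WT per stage, and adjacent stages within genotype over all 24 libraries, with edgeR 4.0.16 (quasi-likelihood fits, TMM factors). Genes were first filtered with filterByExpr at a minimum count of 10 and a minimum total of 15. A call needed a p adjusted after Benjamini-Hochberg below 0.05 and a log2 fold change beyond 1 in size (for the interaction, the adjusted p alone). CPM used TMM library sizes, likeness log2 CPM with a prior count of 2, and ratios a prior count of 0.5. Alternatives were DESeq2 1.42.0 and its size factors, limma 3.58.1 voom with quality weights, no filter, no fold limit, a replicate block, Y-linked expression as a covariate, one joint fit or the 6 libraries compared, and each library left out. The tests were tried on simulated data with planted changes beyond the fold limit, larger than any KO difference of a member. That trial does not speak to differences of the members' size. Positions were compared with GENCODE M21, and figures were drawn in Python 3.11.15.

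Members, gene lists and marker lists were chosen with earlier results of these data known. The 9 members and *Plg* were named in every comparison that tested them. One further gene of that rule is not reported here. Of the pathway list, up to 3 called genes of a role with the largest fold change were eligible per comparison. Genes named outside this rule, after their values were seen, are *F2r* in WT, *F7*, *Fga* and *F11* by library, *F11* between genotypes, *Gas6* in WT, *Kng1* and *Kng2* in KO, and the genes left without libraries of high yolk sac sum.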

Additional observations from a re-analysis of the deposited data

Results flagged for a closer look

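The difference between KO and WT changed with the stage for 3 members at an unadjusted p under 0.05 in the interaction test of edgeR over 24 libraries, and for none after adjustment over all genes. For *Tfpi* the p was 0.0134 (adjusted p of 0.624), with log2 differences of -0.73, 0.10, 0.38 and -0.14 from gd10.5 to gd19.5. For *Plau* it was 0.035 (adjusted p of 0.68), with -0.13, -0.02, -0.12 and 0.19. For *Pros1* it was 0.0416 (adjusted p of 0.685), with 0.06, 0.10, 0.34 and 0.35. No cause was tested.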

How the results depend on the processing

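Counts of called members between KO and WT (0 at each stage) and for the interaction (0) were the same under every alternative run. No member reached the fold limit between KO and WT in any of them. From gd10.5 to gd14.5 the 5 called members in each genotype became 7 with no fold limit, and without single libraries their number ranged from 5 to 5 in WT and from 3 to 5 in KO. The other alternatives gave 5. From gd14.5 to gd16.5 the 1 called member ranged from 0 to 1 without single libraries in each genotype, was 0 in each without the libraries of high yolk sac sum (chosen after seeing the data), and became 2 in WT and 3 in KO with no fold limit. From gd16.5 to gd19.5 that setting gave 1 in WT and the range without single libraries was 0 to 0. Pathway genes called between KO and WT were 4 at gd14.5 and 1 at gd19.5 with no filter on low counts, against 0. Over the steps in WT they ranged without single libraries from 11 to 21 (17 with all), 2 to 5 (5) and 0 to 1 (1), and were 26, 8 and 3 with no fold limit and 9 at gd16.5 with DESeq2. Without the libraries of high yolk sac sum they were 3 in WT and 1 in KO at gd16.5, and 0 in KO at gd19.5. In KO they ranged without single libraries from 12 to 22 (19), 11 to 20 (17) and 1 to 11 (5), and were 10 with no filter, 10 with DESeq2 and 3 with limma voom at gd19.5. The replicate block gave 3 there in place of 5 and moved no count of members. The 12 correlations of deviations between WT and KO libraries of the same number ran from -0.455 to 0.406, and 5 were over 0.1. From so few libraries a group, these cannot settle whether the replicate numbers pair WT with KO libraries.

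Of 513 refits of single members between KO and WT, 513 kept their side of the call and 23 changed sign. The log2 difference largest in size among them was -0.933, so the fold limit alone allowed no call and this count does not measure stability. Of 738 refits of single members over the steps 720 kept their side of the call, 10 lost it, 8 gained it and 11 changed sign. All these sign changes were of uncalled differences of at most 0.20 on the log2 scale. The ratios kept their value within 1 SD of the libraries in 195 of 195 refits, and 4 of these changed sign. The number of libraries, 3 a group, limits the precision. The causes were not tested.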
